A study of Mus musculus with 6 samples.

Results

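The members described here are p53 (Trp53), its regulators Mdm2 and Mdm4, and 7 of its direct transcriptional targets: Ccng1, Zmat3, Phlda3, Trp53inp1, Sesn1, Aen and Pmaip1. They were chosen by name, and every probe set annotated to exactly 1 of these symbols was taken. Of the 10 genes, 9 were measured, with 23 of the 45037 probe sets on the array that are not controls. No probe set was annotated to Trp53 alone, and those annotated to several symbols were not used, so the level of p53's own transcript was not analysed here. The samples were 6 mouse leukemias on a C57BL/6 background, 3 labelled Runx1-KO and 3 labelled Control. In both groups bone marrow cells carried the MLL-ENL fusion oncogene, introduced by transduction, and were transplanted into congenic mice, whose leukemic cells were collected when the mice were moribund. The groups differed by label in Runx1, a hematopoietic transcription factor, which was excised in one group and intact in the other. RNA of each leukemia was measured on 1 array. The labels call the 3 leukemias of a genotype independent. For the Cre driver, the age of the mice, the time to disease and the share of host cells, the sources used here give nothing.

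p53 is a transcription factor that is kept scarce by Mdm2, which ubiquitinates it, and held inactive by Mdm4, which covers its activation domain. When DNA damage, oncogene signalling or ribosomal stress relieves this hold, p53 binds paired decamers near its targets and raises their transcription. Mdm2 is itself such a target, which closes a negative feedback loop. The targets include brakes on the cell cycle, sensors of nutrients and oxidants, and inducers of apoptosis.

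The check of the labels comes first, because the direction of each difference rests on them. The brightest of 6 Runx1 probe sets read 1128, 1573 and 1629.5 on the arrays labelled Runx1-KO and 680.3, 1021 and 850.0 on the Control arrays, a log2 difference of 0.76, and the other 5 also had a higher mean there. The labels do not say which part of Runx1 was excised, so these probe sets may lie outside it and then bear on the labels in no way. Groups are therefore called here by their labels. Xist read 1624 to 1895 in the arrays labelled Runx1-KO and 25.3 to 331 in Control, and the Y-linked Eif2s3y 3.98 to 6.31 against 638 to 707, so the sex of the cells and the genotype label cannot be told apart. The 12 genes of MLL-fusion leukemia and its progenitors, such as Hoxa9 (2790 to 3282), Hoxa10 (581 to 934) and Meis1 (141 to 365), were above the background limit on all 6 arrays. That limit is the brightest of 27 bacterial control probe sets on an array, and ranged from 14.1 to 22.5.

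Some markers listed for other cell types differed between the groups, and which cells the signal came from was not tested. The arrays labelled Runx1-KO had more signal from each of 12 mature neutrophil markers, with summed intensities of 16892 to 20140 against 8538 to 14196 in Control, and Ngp differed by 2.18, Camp by 1.04 and Ltf by 1.77 on the log2 scale. Of 13 monocyte and macrophage markers 12 were lower, with sums of 6036 to 6375 against 8705 to 12016; Csf1r differed by -0.87 and Adgre1 by -1.33. No gene of either list passed the limma test described below, and 7 neutrophil genes (higher) and 9 monocyte genes (lower) had an unadjusted p under 0.05, beside 5.18% and 6.32% of all genes in those directions. All 11 erythroid markers were highest on Control 1, where Alas2 read 814.5 against 4.73 to 16.6 elsewhere and their sum 7061 against 864 to 1297, while Hba-a1 was not above the limit on any array. Sums of 10 T and NK cell markers were 150.0 to 186 against 153 to 260.3, and Cd3e, Cd3d and Cd3g were not above the limit on any array labelled Runx1-KO. Of the 10 genes 7 were lower and 3 higher, and only 3 were above the limit on at least 3 arrays. At an unadjusted p under 0.05 in limma 5 were lower and 1 higher, beside 6.32% and 5.18% of all genes. Nkg7 and Cd8a, named after their values were seen, were higher. Nkg7 read 35.7, 57.6 and 58.3 on the arrays labelled Runx1-KO against 19.1, 18.6 and 4.11. Cd8a overlapped between the groups and was above the limit on all 3 arrays labelled Runx1-KO and on 2 Control arrays. Sums of 9 B cell markers were 346 to 585 against 364 to 523, with Cd79a reaching 53.1 and Cd79b at 84.9 to 205, and those of 10 stromal and endothelial markers 376 to 890 against 567 to 972, with Col1a1 at 26.2 to 40.3, Col1a2 at 16.9 to 27.4 and Col3a1 not above the limit on any array. Vcam1, also named after its values were seen, was the brightest of that list at 181 to 825. For Gapdh, 3' signal was 7.10 times 5' signal on Runx1-KO 1 and 2.67 to 3.02 times on the others. For Actb that ratio was 1.11 on Runx1-KO 1 and 1.03 to 1.10 on the others. In such bulk samples fewer cells of a type and less RNA per cell cannot be told apart, and the part of these differences in the results that follow was not tested.

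The p53 members differed in direction. Cyclin G1 (Ccng1) was lower in every array labelled Runx1-KO on all 3 of its probe sets, by 1.70 to 1.96-fold, and Zmat3, Mdm4 and Aen leaned the same way on some probe sets, whereas Mdm2, Trp53inp1 and Sesn1 were higher on average with overlapping arrays. None of the 23 member probe sets passed an adjusted p of 0.05 in limma's moderated test with Benjamini-Hochberg adjustment, against 0.0688% of all probe sets (31, of which 11 were higher and 20 lower) and 0.0605% of all genes. The lowest adjusted p among the members was 0.186, for Zmat3. At an unadjusted p under 0.05, 6 probe sets were lower and 0 higher, beside 6.12% and 5.23% of all probe sets. Of the 23 probe sets 11 were lower and 12 higher in the arrays labelled Runx1-KO. On 7 of them the groups did not overlap with the arrays labelled Runx1-KO lower, where 10.6% of all probe sets did so, and on 0 with them higher, where the share was 8.62%. These 7 come from 4 genes, so they are not separate observations.

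**Figure D1:**
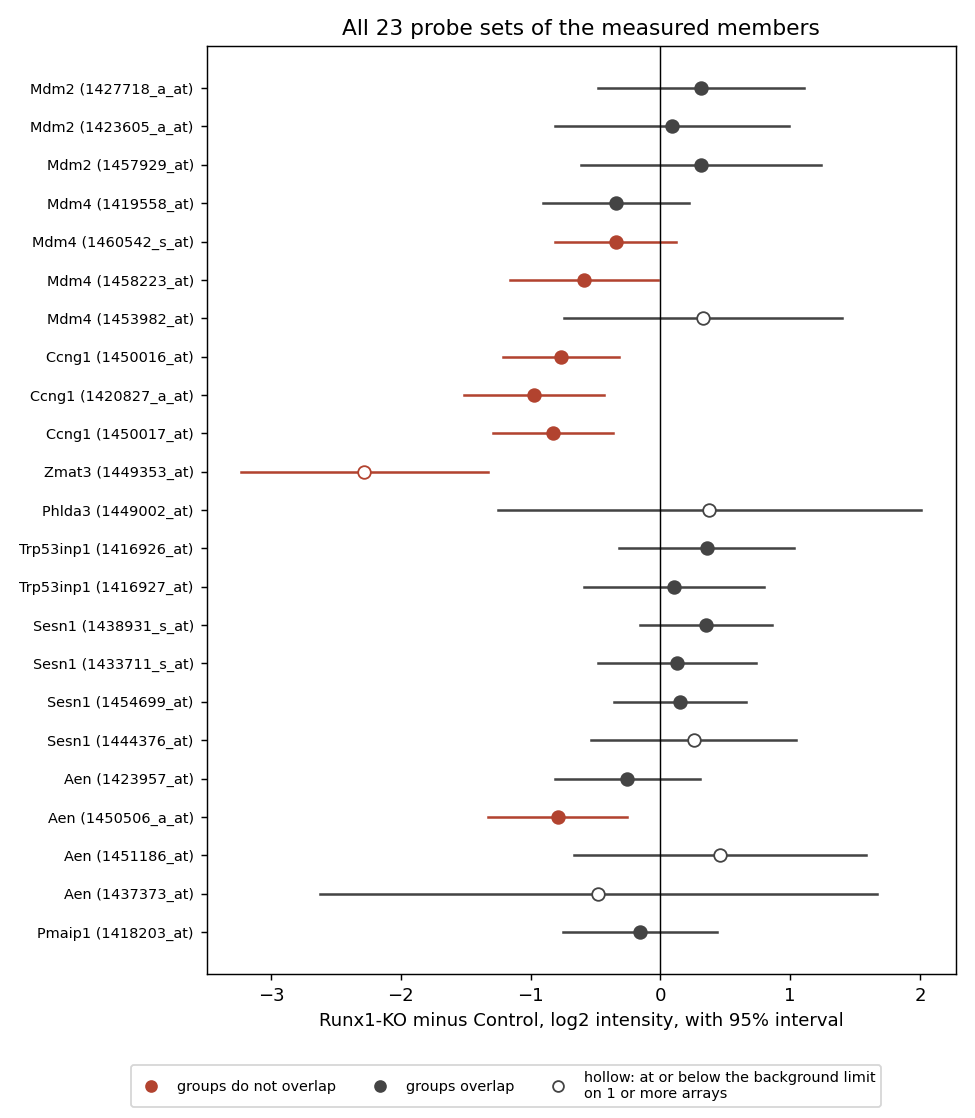
The log2 difference of each of the 23 member probe sets (arrays labelled Runx1-KO minus Control, horizontal axis) is drawn with its 95% interval, red where the groups do not overlap and hollow where an array was at or below its background limit. The 3 Ccng1 intervals and that of Zmat3 lie wholly below 0, as do those of 1 Mdm4 and 1 Aen probe set. Those of Mdm2, Trp53inp1 and Sesn1 all span 0.

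Each gene is represented below by its probe set with the highest mean over all arrays. On that count 5 of 9 genes were lower and 4 higher. At an unadjusted p under 0.05 there were 2 lower (Ccng1 and Zmat3) and 0 higher, beside 6.32% and 5.18% of all genes. The same 2 genes had groups that did not overlap with the arrays labelled Runx1-KO lower, beside 11.7% of all genes; 0 had the reverse, beside 9.17%. Among genes above the background limit on at least 3 arrays, as Ccng1 is and Zmat3 is not, the share with such lower groups was 16%. The median log2 difference of the 9 genes was -0.16, and -0.12 with dim arrays of the lower group raised to their limit, against -0.01 over all 18193 genes.

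**Figure D2:**
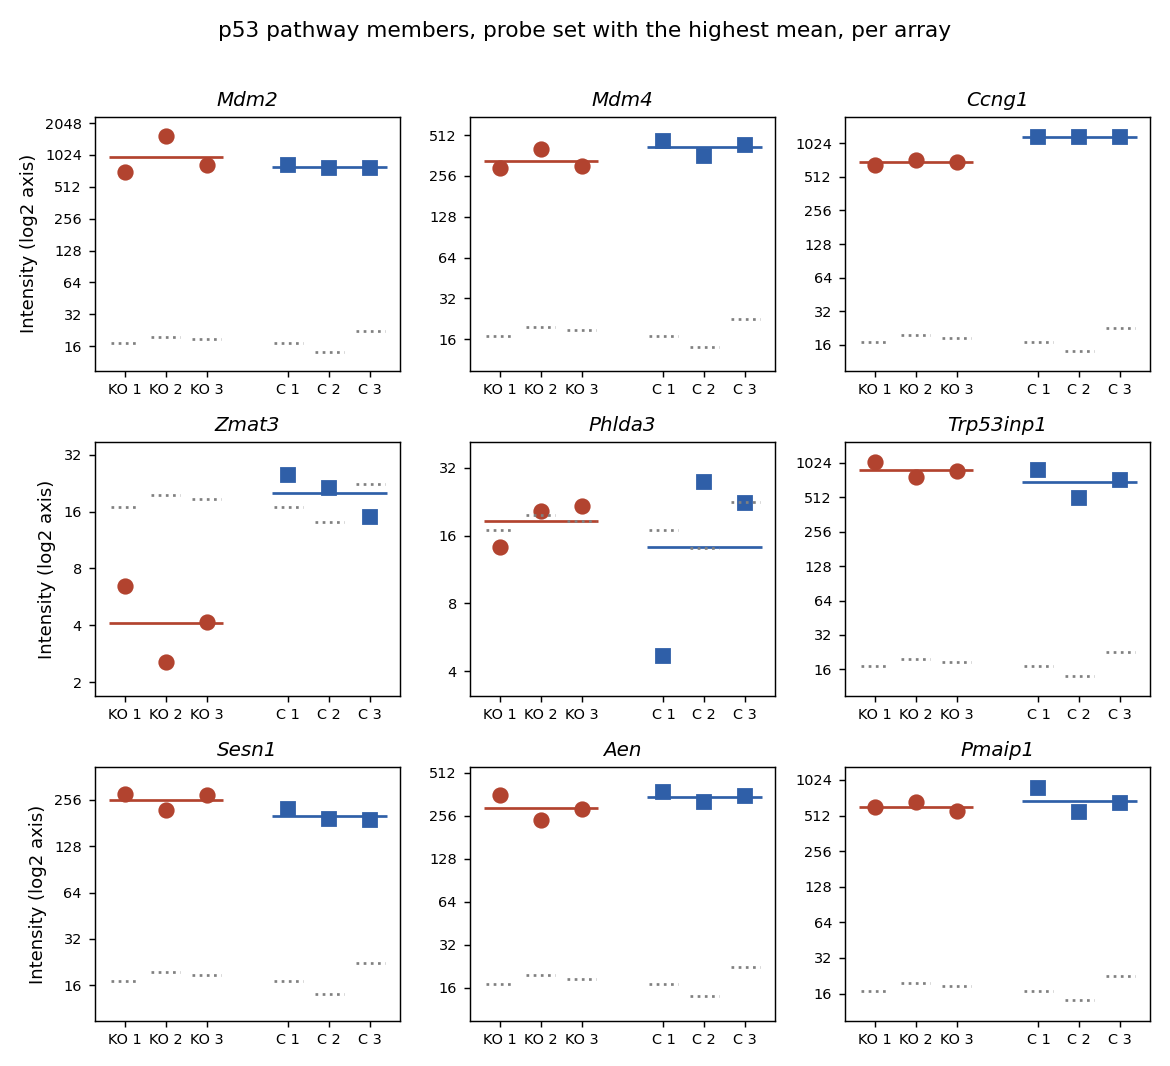
The intensity (log scale) of the representative probe set of each of the 9 measured members is plotted for each array, with the group's geometric mean as a line and each array's background limit dotted. The Ccng1 and Zmat3 points of the 2 groups are apart, the Mdm2 points overlap except for Runx1-KO 2 at 1561, and Phlda3 lies near the limit.

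Promoters of 4 members are shown to set a window with a close match to the p53 motif (Ccng1) beside others with a looser one (Aen, Sesn1) or a poor one (Mdm2). The windows run from 250 bases before to 50 after an annotated start in RefSeq (GRCm38.p6), 5' to 3' on the gene's strand, and capitals mark the 20 bases closest to 2 p53 decamers joined with no gap. The decamer was searched by its consensus under the name p53 decamer; it reads the same on both strands, so both were covered, and the 20 bases counted overlap any single decamer within them. Windows of 7 of the 10 symbols were counted, and any on 1 chromosome had been left out beforehand.
Ccng1, chr11:40755237-40755536, minus strand: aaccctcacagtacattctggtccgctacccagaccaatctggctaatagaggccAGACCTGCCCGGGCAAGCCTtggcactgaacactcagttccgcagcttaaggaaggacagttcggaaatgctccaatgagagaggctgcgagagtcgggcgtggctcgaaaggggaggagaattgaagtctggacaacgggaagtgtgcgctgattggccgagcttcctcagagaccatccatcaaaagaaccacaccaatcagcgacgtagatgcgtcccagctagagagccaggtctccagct
Mdm2, chr10:117710709-117711008, minus strand: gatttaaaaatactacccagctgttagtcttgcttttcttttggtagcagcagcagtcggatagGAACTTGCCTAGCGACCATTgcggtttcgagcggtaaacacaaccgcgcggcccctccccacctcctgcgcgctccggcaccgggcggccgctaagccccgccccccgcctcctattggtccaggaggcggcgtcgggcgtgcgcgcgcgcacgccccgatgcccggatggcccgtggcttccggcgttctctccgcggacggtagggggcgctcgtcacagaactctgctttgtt
Aen, chr7:78895677-78895976, plus strand: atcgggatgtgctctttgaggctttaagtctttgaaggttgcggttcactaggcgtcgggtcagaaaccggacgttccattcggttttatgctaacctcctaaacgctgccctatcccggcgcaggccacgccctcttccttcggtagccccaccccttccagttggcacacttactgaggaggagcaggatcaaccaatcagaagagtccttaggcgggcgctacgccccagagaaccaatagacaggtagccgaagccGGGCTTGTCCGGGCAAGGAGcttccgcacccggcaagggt
Sesn1, chr10:41887189-41887488, plus strand: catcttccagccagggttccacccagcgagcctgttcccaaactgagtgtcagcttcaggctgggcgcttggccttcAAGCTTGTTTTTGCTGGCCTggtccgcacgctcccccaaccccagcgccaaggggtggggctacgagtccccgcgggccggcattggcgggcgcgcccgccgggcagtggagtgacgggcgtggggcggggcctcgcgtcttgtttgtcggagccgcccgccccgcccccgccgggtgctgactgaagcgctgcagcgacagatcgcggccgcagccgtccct
In Ccng1 the capitals span bases 195 to 176 before the start and differ from the paired decamer at 1 position, a match that 0.0883% of 32851 windows of this length reach. In Aen they span positions 10 to 29 after the start, with 3 mismatches. The other Aen window, the Trp53 window, this Sesn1 window and 1 of 2 Mdm4 windows also have 3, and 6.29% of all windows come that close. The Mdm2 window has 5 mismatches, which 76.6% of windows reach, and the Phlda3 window also has 5. The well-studied p53-responsive promoter of Mdm2 lies in its first intron, outside this window. An exact single decamer was found in 6 of the 10 windows of these genes, that of Trp53 among them, beside 8.36% of all windows. The 2 Aen windows overlap and share theirs. A match describes letters only, and the absence of one says nothing of p53 binding elsewhere.

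Ccng1 encodes cyclin G1, which recruits a phosphatase to Mdm2 and is one of the targets that p53 induces most widely. Its brightest probe set (1450016_at) read 653, 721 and 696 on the arrays labelled Runx1-KO and 1170.3, 1178 and 1169 on the Control arrays. Every Control array was above every array labelled Runx1-KO, and within each group the values lay close together. The log2 difference was -0.77 ± 0.19 (SE, n = 3 per group; 95% interval -1.21 to -0.32), a 1.70-fold lower level, with an adjusted p of 0.264 in limma.

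The other Ccng1 probe sets had the same pattern. Probe set 1420827_a_at read 239, 194 and 205 against 424, 482 and 348, a difference of -0.97 ± 0.22 and 1.96-fold (adjusted p = 0.257 in limma). Probe set 1450017_at read 80.2, 73.9 and 74.5 against 136, 145 and 125, a difference of -0.83 ± 0.19 and 1.78-fold (adjusted p = 0.257 in limma). On neither did the groups overlap. An exact permutation test of the brightest probe set gave p = 0.1, the smallest that 20 divisions of 6 arrays can give. With a variance trend and robust fitting, where 0.451% of all probe sets were called, limma's adjusted p for 1450016_at was 0.0306, so that this 1 member probe set then passed; the other Ccng1 probe sets did not (0.0782 and 0.155). Control 1, the array with the high erythroid markers, lay between Control 2 and Control 3 on all 3 Ccng1 probe sets. The neutrophil, monocyte and sex-linked signals differed by group, and their part in the Ccng1 difference, like that of erythroid cells, was not tested.

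Mdm2, the ubiquitin ligase that degrades p53 and is induced by it, was not separated between the groups. Its brightest probe set (1427718_a_at) read 713, 1561 and 831 on the arrays labelled Runx1-KO against 820.0, 763 and 767. Runx1-KO 2 stood far above the rest, and Runx1-KO 1 was the lowest of all. The difference was 0.32 ± 0.33 (95% interval -0.48 to 1.11; adjusted p = 0.755 in limma; exact permutation p = 0.6), and -0.02 without Runx1-KO 2 (adjusted p = 0.974 in limma).

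Runx1-KO 2 was also the highest array on both other Mdm2 probe sets. Probe set 1423605_a_at read 365, 836 and 367 against 524, 455 and 389.9, a difference of 0.09 ± 0.38. Probe set 1457929_at read 446, 793 and 389 against 608, 382 and 309, a difference of 0.31 ± 0.38. The groups overlapped on both, with 95% intervals of -0.82 to 0.99 and -0.61 to 1.23.

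**Figure D3:**
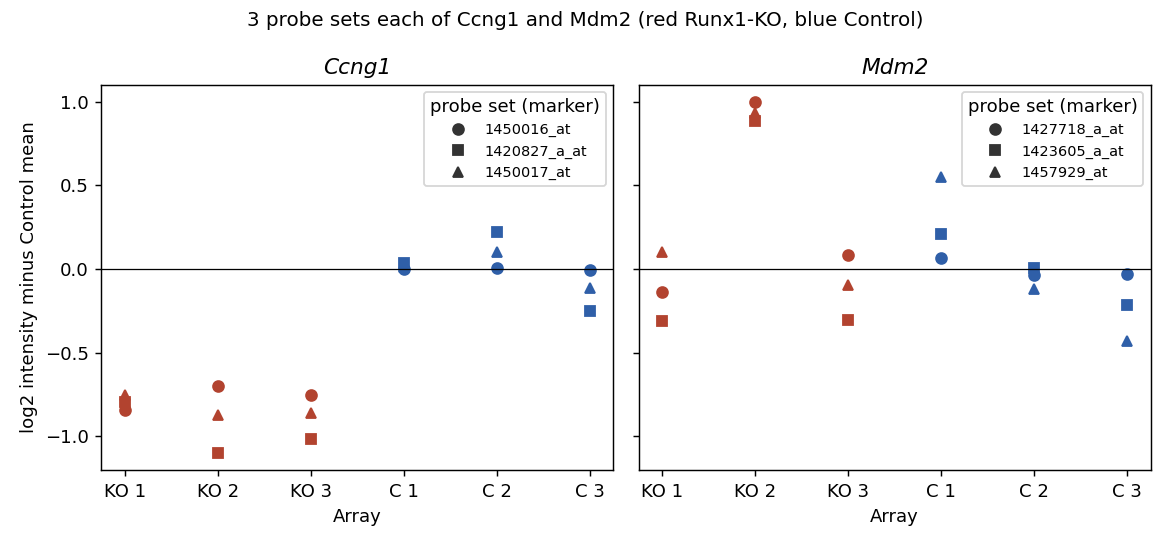
For each of the 3 probe sets of Ccng1 (left) and Mdm2 (right), log2 intensity minus the probe set's Control mean (vertical axis) is plotted by array, with 1 marker shape per probe set. All Ccng1 points of the arrays labelled Runx1-KO lie below all Control points, whereas of the Mdm2 points only those of Runx1-KO 2 stand apart, and upward.

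Mdm4, the Mdm2 relative that binds p53 without degrading it, was lower on average on its 3 probe sets above background. Its brightest (1419558_at) read 291, 402 and 300.3 against 464, 359 and 432, with Runx1-KO 2 above Control 2. The difference was -0.34 ± 0.23 (95% interval -0.91 to 0.22; adjusted p = 0.619 in limma; exact permutation p = 0.2). On 2 further probe sets the groups did not overlap. Probe set 1460542_s_at read 223, 195 and 195 against 272, 265 and 242, a difference of -0.35 ± 0.19 (adjusted p = 0.550 in limma). Probe set 1458223_at read 23.6, 28.2 and 36.4 against 41.2, 42.0 and 47.7, a difference of -0.59 ± 0.24 (adjusted p = 0.432 in limma). The latter is close to the background limits, and 1453982_at was not above them on any array. No Mdm4 probe set passed the test.

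Zmat3 encodes a zinc finger RNA-binding protein that p53 induces and that acts in tumor suppression. Its single probe set (1449353_at) read 6.50, 2.55 and 4.15 on the arrays labelled Runx1-KO against 24.8, 21.2 and 15.0. The groups did not overlap, but none of the arrays labelled Runx1-KO was above its background limit, and of the Control arrays only Control 1 and Control 2 were. The fitted difference was -2.28 ± 0.40 (95% interval -3.24 to -1.33; adjusted p = 0.186 in limma; exact permutation p = 0.1). With the arrays labelled Runx1-KO raised to their limits and the Control arrays as read, the level was 1.09-fold lower. Control 3 was itself not above its limit, so this value is not a strict minimum. After 16 was added to each intensity the difference was -0.83.

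Phlda3, a p53-induced protein that blocks recruitment of the kinase Akt to the membrane, was near the background limit throughout. Its probe set (1449002_at) read 14.2, 20.6 and 21.7 against 4.68, 27.7 and 22.3. Only 2 arrays labelled Runx1-KO and 1 Control array were above their limits, and Control 1 was the lowest of all. The difference was 0.38 ± 0.68 (95% interval -1.25 to 2.01; adjusted p = 0.868 in limma; exact permutation p = 1), and its sign turned to -0.42 without Control 1.

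Trp53inp1 encodes a stress protein that aids p53 phosphorylation and autophagy. Its brighter probe set (1416926_at) read 1037, 766 and 870.2 against 892, 507 and 729.5. The groups overlapped, with Control 2 the lowest and Runx1-KO 1 the highest. The difference was 0.36 ± 0.28 (95% interval -0.32 to 1.03; adjusted p = 0.670 in limma; exact permutation p = 0.3). Probe set 1416927_at read 215, 200.2 and 249 against 270.0, 144 and 221, with Control arrays at both ends and a difference of 0.11 ± 0.29.

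Sesn1, sestrin 1, is a leucine-regulated inhibitor of mTORC1 that p53 induces. Its brightest probe set (1438931_s_at) read 278, 220.5 and 277 against 225, 192 and 190.4. Runx1-KO 1 and Runx1-KO 3 were above all Control arrays and Runx1-KO 2 was just below Control 1. The difference was 0.35 ± 0.21 (95% interval -0.16 to 0.86; adjusted p = 0.576 in limma; exact permutation p = 0.2). Probe set 1433711_s_at read 218, 230.1 and 164 against 231, 158 and 174, and 1454699_at read 51.3, 60.3 and 67.3 against 58.9, 50.7 and 50.8. Both overlapped, with differences of 0.13 ± 0.25 and 0.15 ± 0.21, and 1444376_at was not above the limit on any array.

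Aen and Pmaip1 are the apoptotic targets among the members. Aen is a nuclease that helps degrade DNA in dying cells. Its brightest probe set (1423957_at) read 360.0, 241 and 287 against 374, 320.1 and 353, so that 2 arrays labelled Runx1-KO lay below all Control arrays and Runx1-KO 1 did not. The difference was -0.26 ± 0.23 (95% interval -0.81 to 0.30; adjusted p = 0.715 in limma; exact permutation p = 0.3).

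A dimmer Aen probe set (1450506_a_at) separated the groups. It read 27.4, 21.4 and 22.6 against 44.4, 34.8 and 44.6, a difference of -0.79 ± 0.22 and 1.73-fold (adjusted p = 0.311 in limma). These values are not far above the background limits. Probe sets 1451186_at and 1437373_at were above the limit on 1 and 2 arrays, with differences of 0.46 ± 0.47 and -0.48 ± 0.89. The Aen probe sets therefore disagreed in size, and in sign where dim.

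Pmaip1 encodes Noxa, a BH3-only protein that neutralises the survival protein Mcl1. Its probe set (1418203_at) read 608, 666 and 560.2 against 874, 549 and 655. Control 1 was the highest and Control 2 the lowest array, so all 3 arrays labelled Runx1-KO lay within the Control range. The difference was -0.16 ± 0.25 (95% interval -0.75 to 0.44; adjusted p = 0.846 in limma; exact permutation p = 0.7), and 0.02 without Control 1.

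The rest of the pathway was read through lists of genes. These were other genes that p53 activates, enzymes and cofactors that act on p53 or Mdm2, the p53 family and paralogs of the members. Further lists held other Bcl2-family genes, genes of sestrin and GATOR signalling to mTORC1, and cell-cycle genes that p53 represses through p21 and the DREAM complex. Of their 150 genes 136 had a named probe set, and 0 passed the test, at a lowest adjusted p of 0.247 in limma. At an unadjusted p under 0.05, 4 of the 136 were higher and 16 lower, beside 5.18% and 6.32% of all genes. On average 96 were lower and 40 higher in the arrays labelled Runx1-KO, a share lower of 70.6%, beside 50.8% of all genes and 55.4% of genes above the limit on at least 3 arrays. Their median difference was -0.17, or -0.14 with dim arrays of the lower group raised to their limit. These pooled values mix genes that p53 activates with genes that it represses. By list, the share lower ran from 41.7% in the other Bcl2-family genes to 100% in the 23 cell-cycle genes repressed through p21 and DREAM.

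**Figure D4:**
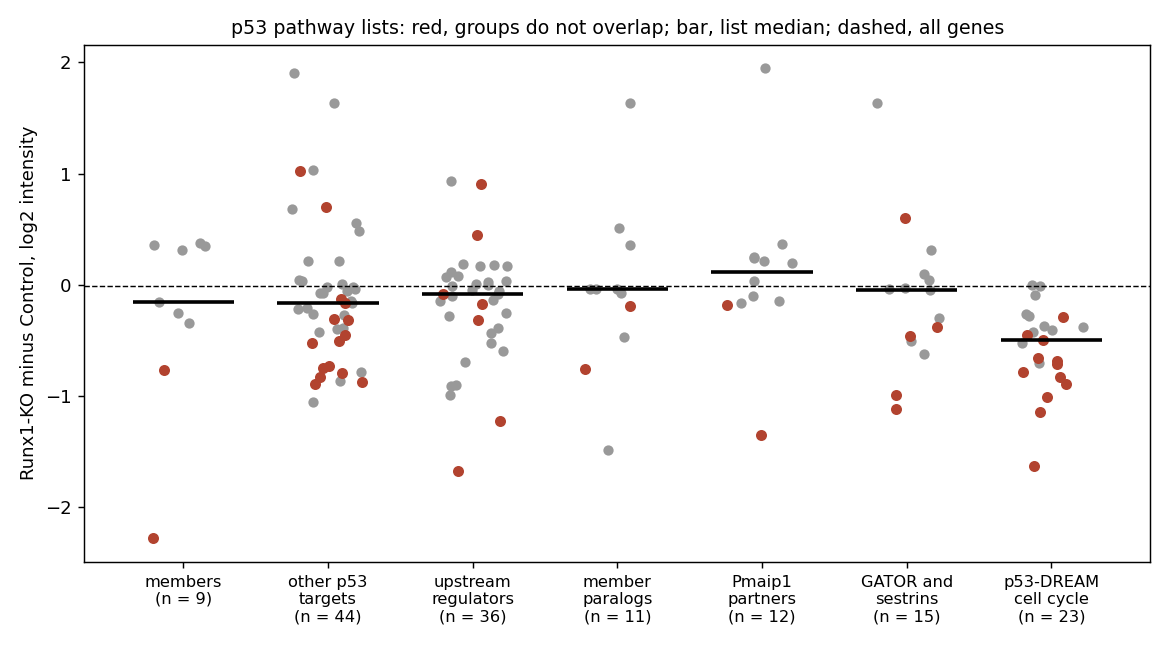
The log2 difference of each measured gene (arrays labelled Runx1-KO minus Control, vertical axis) is plotted by list, in red where the groups do not overlap, with the list's median as a bar and the median of all genes dashed. The 23 cell-cycle genes repressed through p21 and DREAM all lie below 0 with a median of -0.50. The other p53 targets spread around -0.16 and the other Bcl2-family genes, labelled Pmaip1 partners, around 0.11.

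Among 44 other targets 31 were lower and 13 higher, with a median of -0.16, and 13 had lower and 2 had higher groups that did not overlap, beside 11.7% and 9.17% of all genes and, for lower, 16% of genes above the limit on at least 3 arrays. At an unadjusted p under 0.05 in limma, 3 were lower and 2 higher, beside 6.32% and 5.18% of all genes, and none passed the test. Cdkn1a, the gene of the cell-cycle inhibitor p21, read 410.0, 1253 and 799 against 1257, 704 and 1071, a wide overlap and a difference of -0.40 ± 0.46 (adjusted p = 0.777 in limma). Bbc3, the gene of the BH3-only protein Puma, read 101, 168 and 156 against 112, 126 and 119.5, a difference of 0.22 ± 0.26. No probe set was annotated to Bax alone, so Bax was not analysed here.

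The 3 other targets of lowest p differed in direction. Bcl6, a transcriptional repressor of germinal center B cells, read 203, 290.0 and 286 against 184, 79.8 and 136, all higher, with a difference of 1.02 ± 0.36 (adjusted p = 0.379 in limma). Apaf1, the scaffold of the apoptosome, read 364, 207 and 199.7 against 503, 399.6 and 418, all lower, with a difference of -0.83 ± 0.30 (adjusted p = 0.390 in limma). Tigar, a fructose bisphosphatase that slows glycolysis, read 221, 149 and 182 against 396, 268 and 259, all lower, with a difference of -0.73 ± 0.27 (adjusted p = 0.403 in limma).

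Of 36 upstream regulators 22 were lower and 14 higher, with a median of -0.08. The 3 of lowest p were kinases of DNA damage signalling, and none passed. Chek2 read 57.9, 15.3 and 34.5 against 111, 109 and 82.3, with no overlap and a difference of -1.68 ± 0.49 (adjusted p = 0.323 in limma); Runx1-KO 2 was not above its background limit. Atm read 156, 63.3 and 128 against 265, 266 and 229.8, a difference of -1.22 ± 0.37 (adjusted p = 0.328 in limma). Prkdc, the catalytic subunit of DNA-dependent protein kinase, read 109, 43.5 and 76.3 against 139, 165 and 102 and overlapped, with a difference of -0.90 ± 0.39. In all 3 genes Runx1-KO 2 was the lowest array. The related kinases Chek1 and Atr, named after their values were seen, overlapped between the groups, with differences of -0.53 ± 0.30 and -0.44 ± 0.27. Cdkn2a, whose product Arf restrains Mdm2, was not above the limit on any array (8.62 to 16.4).

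The p53 paralogs were low. Trp63 read 19.0, 22.3 and 23.5 against 21.7, 18.5 and 24.8, with a difference of 0.00 ± 0.22, and Trp73 (7.04 to 15.2) was not above the limit on any array.

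Paralogs of the members were mixed. Of 11, 3 were higher and 8 lower, with a median of -0.04. Ccng2, the cyclin closest to Ccng1, read 469, 436 and 572 against 511, 491 and 504, a difference of -0.04 ± 0.21 (95% interval -0.53 to 0.46) with overlap. Sesn2, the stress-induced sestrin, read 51.8, 253 and 252 against 32.0, 48.7 and 70.4, so that Runx1-KO 2 and Runx1-KO 3 were high and Runx1-KO 1 was within the Control range, with a difference of 1.64 ± 0.68 (adjusted p = 0.439 in limma). Sesn3 differed by -0.04 ± 0.35 and Trp53inp2 by -0.08 ± 0.31. Zmat1 differed by -0.76 ± 0.30, with 1 of 3 arrays labelled Runx1-KO above the limit, and Isg20, an exonuclease related to Aen, differed by -1.49 ± 1.08 on account of 403 on Control 1, against 14.6 to 41.2 elsewhere.

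Of 12 other measured Bcl2-family genes 7 were higher and 5 lower. Mcl1, the main survival protein bound by Noxa, read 2520.2, 2476 and 2239.8 against 2472, 1584 and 2108, with overlap and a difference of 0.25 ± 0.24. Bcl2, a survival protein that Noxa binds poorly, read 649, 255 and 316 against 841, 868 and 1192, with no overlap and a difference of -1.35 ± 0.39 (adjusted p = 0.320 in limma). Bmf, a BH3-only protein, differed by 0.37 ± 0.25, and Bik, another, was not above the limit on any array.

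All 23 measured genes repressed through p21 and DREAM were lower on average, with a median of -0.50; none passed, 7 had an unadjusted p under 0.05, and 12 had groups that did not overlap. Beside these, 6.32% of all genes were lower at that p, and 11.7% of all genes and 16% of those above the limit on at least 3 arrays had lower groups that did not overlap. The listed genes encode the machinery of mitosis and DNA replication. Plk1, a mitotic kinase, read 24.3, 11.8 and 24.7 against 48.1, 38.9 and 40.7, a difference of -1.14 ± 0.34 (adjusted p = 0.328 in limma), with Runx1-KO 2 not above its limit. Bub1b, of the spindle checkpoint, read 181, 42.5 and 97.5 against 308, 292 and 246, a difference of -1.63 ± 0.52 (adjusted p = 0.349 in limma). Ccnb2, a mitotic cyclin, read 602, 413 and 579 against 932, 833 and 813, a difference of -0.71 ± 0.23 (adjusted p = 0.360 in limma). Summed over the list, the intensities were 11529, 7201 and 11405 against 13657, 13632.5 and 13061, with Runx1-KO 2 far below the rest; without it 18 of 23 genes were lower and the median was -0.28. Runx1-KO 2 also had the most signal from Mdm2 and was the highest array for 8 of the 12 leukemia genes. Any link between these was seen on 1 array only and was not tested.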

How the data were processed

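Total RNA was labelled by the NuGEN Ovation Biotin system and hybridised to a 1-colour mouse array, per the labels. The deposited table holds intensity on a linear scale. The authors' probe summary, background correction and normalization, and the scan dates, are not given in the sources used here. Median intensity per array was 24.4 to 26.0, and the number of arrays limits the precision. Probe sets were named from the platform annotation, and those with several symbols or none were left unnamed.

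From the deposited intensity, floored at 1, log2 values were computed and compared with limma 3.58.1 (lmFit, eBayes) under R 4.3.3, without covariate or filter and two-sided, and adjusted over all 45037 probe sets at a threshold of 0.05. The script was tested on simulated data. A gene's probe set with the highest mean over all arrays represents it. A probe set at or below the limit on a whole group carries only a bound, for which each dim array of the lower group was raised to its limit; bounded medians use the same step on single dim arrays. Promoters came from a RefSeq table of GRCm38.p6.

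The members and lists were chosen with earlier results of these data known. Named were all members and their listed relatives, from each pathway list genes past the threshold or otherwise the 3 of lowest p, and from each marker list, the leukemia genes included, its first 3 genes where a probe set was named. Genes named after their values were seen are marked. Alternatives were other normalization, centring, filter, offset, probe set choice, variance models, array weights, a replicate block, and arrays left out. The deviations of same-numbered arrays from their group means had r of -0.01, -0.17 and 0.06, and those of differently numbered arrays -0.25 to 0.20. The labels do not say what a shared number means, so the numbers were not taken as pairs.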

Additional observations from a re-analysis of the deposited data

How the results depend on the processing

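No member probe set passed in any alternative run except with a variance trend and robust fitting, where 1 did (Ccng1, 1450016_at); no pathway gene passed in any. Ccng1 was lower in every alternative, by -0.86 to -0.72, with adjusted p of 0.031 to 0.540. Zmat3 was lower by -2.62 to -0.83 where tested; the filter on dim probe sets dropped it. The members' median of -0.16 was -0.12 after quantile normalization, 0.079 with that filter, -0.20 with array weights, -0.18 without both arrays numbered 1, and -0.31 to -0.10 over the arrays left out in turn. Leaving out arrays in turn gave -0.024 to 0.54 for Mdm2, -0.42 to 0.86 for Phlda3 and -0.31 to 0.024 for Pmaip1; without both arrays numbered 1, Phlda3 was -0.23 and Pmaip1 0.027.

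The count of all probe sets past the threshold, 31 here, was 203 with the trend and robust fit, 91 with an offset of 16, 66 with the filter, 51 at a threshold of 0.1, 16 or 19 with 1 value per gene, 5 with the ordinary statistic, 4 to 9 with an array left out and 0 without both arrays numbered 1. With the replicate number as a block 0 probe sets passed, members included, and the adjusted p was 0.467 for Ccng1 and 0.428 for Zmat3; the same numbers share no stated source. Some of these settings held fewer arrays or fewer tests, and the causes of the shifts were not tested. Zmat3, Phlda3 and the dimmer probe sets of Mdm4, Sesn1 and Aen are limited by signal near background.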

Other observations

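Genes of sestrin and GATOR signalling, which carries the amino acid signal to mTORC1 and in which Sesn1 acts, were mixed: of 15 measured, 5 were higher and 10 lower, with a median of -0.05 that was 0.02 after quantile normalization, and none passed limma's test (at an unadjusted p under 0.05, 2 were higher and 2 lower, beside 5.18% and 6.32% of all genes). Nprl2, a GATOR1 subunit, read 30.1, 26.2 and 25.7 on the arrays labelled Runx1-KO against 63.0, 55.4 and 45.3, a difference of -0.99 ± 0.22 with no overlap (adjusted p = 0.247 in limma). Tsc1, an inhibitor of mTORC1 activation, read 356, 466 and 381 against 277, 245 and 267, a difference of 0.60 ± 0.21 with no overlap (adjusted p = 0.378 in limma). Wdr59, a GATOR2 subunit, was not above the limit on any array.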
